A study of Mus musculus with 2 samples.

Results

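Lhx6 and Lhx8 were followed in CNCCs, the cranial neural crest cells that build most of the face, from E11.5 mouse embryos. They were taken by gene symbol, 2 of the 32285 genes in the count tables. No measured value was used to pick them, but earlier results of these data were known. Single-cell RNA-seq had been performed on cells sorted for GFP. The GFP came from the r26 mTmG reporter after recombination by Wnt1CRE, a recombinase driven by the Wnt1 promoter, which acts in the neural crest and in part of the dorsal neural tube. Controls were Tfap2a wt/flox and Tfap2b wt/flox, so they carried 1 floxed copy of each gene together with the recombinase. Mutants were flox/flox at both genes, and all embryos were r26 mTmG/mTmG and Wnt1CRE+. Littermate heads were cut below the second pharyngeal arch, and 2 embryos were pooled into each library. Each genotype was therefore 1 library, so no test was possible, no p-value was computed, and all intervals below are 95% intervals for counting error only.

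LIM-homeodomain factors bind DNA through a homeodomain and bind cofactors such as Ldb1 through a pair of LIM zinc fingers. In the developing face, Lhx6 and Lhx8 are known from the mesenchyme next to the oral ectoderm of the maxillary and mandibular parts of the first pharyngeal arch. There they respond to fibroblast growth factor 8 from the ectoderm, and together they are required for normal molar teeth and palate. Both genes are also used by neurons born in the ventral forebrain. Frontonasal mesenchyme, in contrast, is marked by the Alx homeobox genes, distal mandibular mesenchyme by Hand1 and Hand2, and the second arch by Hox genes.

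The control library held 6148 barcodes and 83542433 unique molecular identifiers (UMIs, tags that mark single captured transcripts). The mutant library held 6063 barcodes and 79206144 UMIs, and the libraries had 6 barcode sequences in common. After filtering, 5625 control and 5587 mutant cells remained, with medians of 13478 and 12234 UMIs. Of these, 3807 control and 2876 mutant cells were mesenchyme, where Prrx1, a mesenchymal homeobox gene, stood at 510 and 489 CPM (UMIs of a gene per 1000000 UMIs of the cells summed). The sort also held neurons (799 and 1288 cells), brain progenitors (758 and 1224) and glia (261 and 199). Xist, the transcript of the inactive X chromosome, was present in 98.8% of the control but 0.107% of the mutant cells. For Y-linked transcripts the shares were 0.0356% and 82.0%, so a difference by genotype and one by sex cannot be told apart. The summed level of 7 haemoglobin and erythroid genes in the mesenchyme was 1127 CPM in the control and 1.98 CPM in the mutant library. In the control these transcripts were concentrated in a small cluster of 43 cells (cluster 6, described below). Tfap2a in the mesenchyme was 19.5 CPM in the control and 13.6 CPM in the mutant, and Tfap2b was 57.8 and 48.3 CPM. Since only 3′ ends were counted, transcripts of recombined alleles may be among these UMIs.

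Lhx6 (ENSMUSG00000026890) lies on GRCm38 chr2:36081953-36105408, minus strand, over 23456 bases with 9 annotated transcripts from 7 start positions. Lhx8 (ENSMUSG00000096225) lies on chr3:154306294-154330659, also on the minus strand, over 24366 bases with 5 transcripts. Upstream of Lhx8, the processed transcript AI606473 (ENSMUSG00000093738) starts at chr3:154330821 on the opposite strand and runs to 154334254, so that 161 bases separate the 5′ ends of this pair. These bases are shown because AI606473 was the gene most like Lhx8 over the finest cell clusters in both libraries (described below), and the spacer is the DNA between them. The RefSeq promoter window of Lhx8 (GRCm38) covers 151 of them, chr3:154330660-154330810, read on the minus strand towards Lhx8, with a GC content of 39.7%. No letters are capitalised, since neither motif searched was in this window.
Lhx8 spacer: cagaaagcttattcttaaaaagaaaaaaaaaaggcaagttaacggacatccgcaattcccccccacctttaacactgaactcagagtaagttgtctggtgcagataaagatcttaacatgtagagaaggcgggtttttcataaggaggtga
The TFAP2 motif GCCNNNGGC was searched on both strands in the RefSeq promoter windows of Lhx6 (3 windows) and Lhx8 (1 window), each from 250 bases before to 50 bases after a start. It had 0 matches in these windows, and 16.6% of all 32851 windows of this length hold it. The homeodomain motif TAATTA also had 0 matches, and 5.29% of all windows hold it. No match says only that these letters are not in these windows.

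Mesenchyme cells were clustered without Lhx6, Lhx8, the Alx genes, Tfap2a, Tfap2b, Xist, Tsix and Y-linked genes. Clusters were named from marker lists that also left out Lhx6 and Lhx8. The frontonasal-like cluster (1218 control and 834 mutant cells) had Pax7, Tfap2b, Zic1 and Alcam among its leading genes. The maxillary-like cluster (1113 and 824 cells) was led by Gm43376, AI606473, Osr2, Tbx3 and Zmat4. The second arch-like cluster (759 and 614 cells) was led by 3110099E03Rik, Dlx3, Hmx1, Hoxa2 and Emx2. The mandibular-like cluster (540 and 292 cells) was led by Hand1, Syt6, Gpr50, Hand2os1 and Gm34030. A further 3 small clusters stayed without a name. Cluster 4 (79 and 170 cells) was led by Shisa3, Tinagl1, Cyp26a1, Sned1 and Tmem37. Cluster 5 (55 and 92 cells) was led by the neural genes Pou3f2, Otx2, Hes5, Mir124-2hg and Sox2, and 76.4% and 77.2% of its cells were called doublets. Cluster 6 (43 and 50 cells) was led by neuronal genes such as Stmn2 and Sncg, with medians of 968 and 1123.5 UMIs, and gave too few UMIs to read a level. Haemoglobin genes were kept out of the leading genes of all clusters. In the matching cluster of the intermediate clustering (43 and 50 cells), the 7 haemoglobin and erythroid genes summed to 360380 CPM in the control and 0 CPM in the mutant.

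Both genes were highest in maxillary-like mesenchyme. Lhx6 stood there at 54.7 CPM (51.5 to 58.0) in the control and 55.0 CPM (51.3 to 58.8) in the mutant library, and Lhx8 at 226 CPM (219 to 232) and 209 CPM (202 to 216). That cluster held 85.0% of the control and 79.2% of the mutant Lhx6 UMIs of the mesenchyme, and 83.2% and 75.5% of the Lhx8 UMIs, from 29.2% and 28.7% of the cells.

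**Figure D1:**
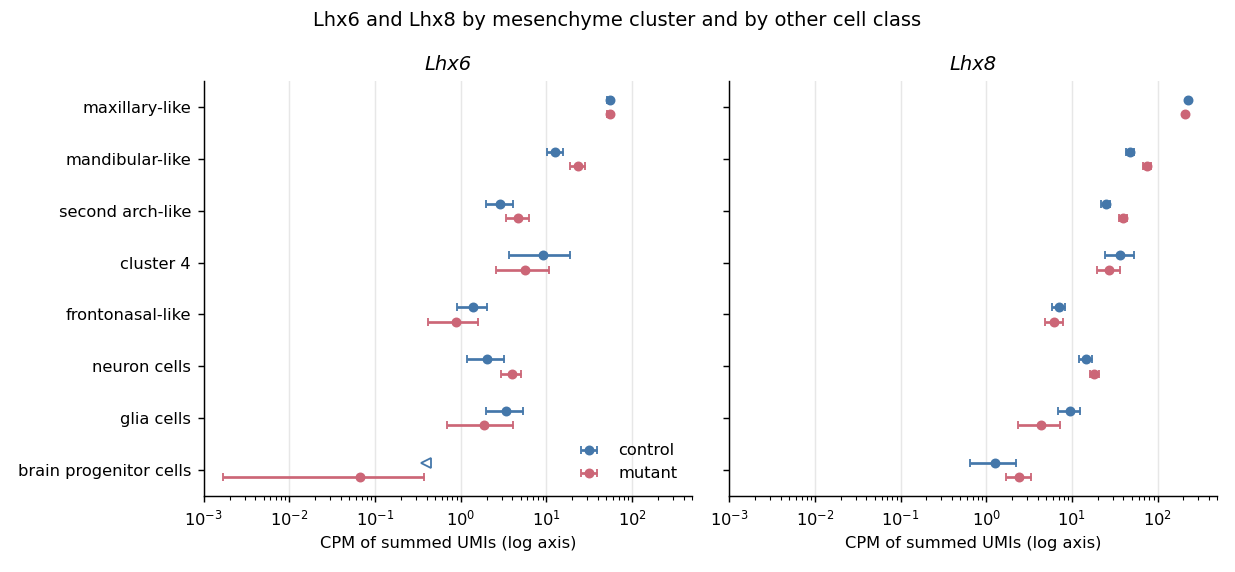
Level of Lhx6 (left) and Lhx8 (right) in CPM of summed UMIs, on a log axis, for 5 mesenchyme clusters and 3 other cell classes, with control in blue, mutant in red and bars for exact Poisson 95% intervals. Clusters 5 and 6 are not drawn, and the open triangle marks the upper limit where no UMI was found. Maxillary-like mesenchyme is highest for both genes, at 54.7 and 55.0 CPM of Lhx6 and 226 and 209 CPM of Lhx8.

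For Lhx6, the control order after maxillary-like was cluster 5 (21.6 CPM), mandibular-like (12.6), cluster 4 (9.21), second arch-like (2.89) and frontonasal-like (1.38). From cluster 5 downwards, the intervals of each pair of neighbours in this control order overlapped. The mutant order was maxillary-like, mandibular-like (23.2 CPM), cluster 5 (20.1), cluster 4 (5.70), second arch-like (4.65) and frontonasal-like (0.869). Overlap in the mutant library was found between mandibular-like and cluster 5, and between cluster 4 and second arch-like. In 744 control brain progenitors with each cell thinned to 5000 UMIs, 0 held an Lhx6 UMI, which allows a share of up to 0.403%. The mutant share was 0.0843% of 1186 cells. Lhx6 in thinned frontonasal-like cells was found in 4 control and 1 mutant cells and was near this background.

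For Lhx8, the control order was maxillary-like, cluster 5 (73.7 CPM), mandibular-like (47.4), cluster 4 (36.8), second arch-like (24.9) and frontonasal-like (7.03), with cluster 6 left aside. The intervals of mandibular-like and cluster 4, and of cluster 4 and second arch-like, overlapped. In the mutant library second arch-like (39.8 CPM) came before cluster 4 (27.2), with overlapping intervals. Cluster 5 (76.1) and mandibular-like (75.9) also overlapped, and frontonasal-like was last at 6.17 CPM. Lhx8 UMIs were found in 0.403% of control and 0.422% of mutant brain progenitors after thinning, whose median depths before it were 11599 and 11363.5 UMIs. The frontonasal-like shares, 2.87% and 2.73%, were above these, so Lhx8 was detectable in a few frontonasal-like cells.

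The count per cell also set maxillary-like mesenchyme apart. In maxillary-like mesenchyme, 324 of 1113 control and 219 of 824 mutant cells held 6 or more Lhx8 UMIs, while 310 and 256 held none. The highest single cells had 37 and 33 Lhx8 UMIs. In the second arch-like cluster, 13 of 759 control and 22 of 614 mutant cells reached 6 Lhx8 UMIs, and the highest cells held 19 and 24, so a few second arch-like cells lay within the maxillary-like range. In the mandibular-like cluster, 9 of 540 and 14 of 292 cells reached 6 Lhx8 UMIs. For Lhx6, 28 and 16 maxillary-like cells held 6 or more UMIs, against 0 control and 1 mutant mandibular-like cells.

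**Figure D2:**
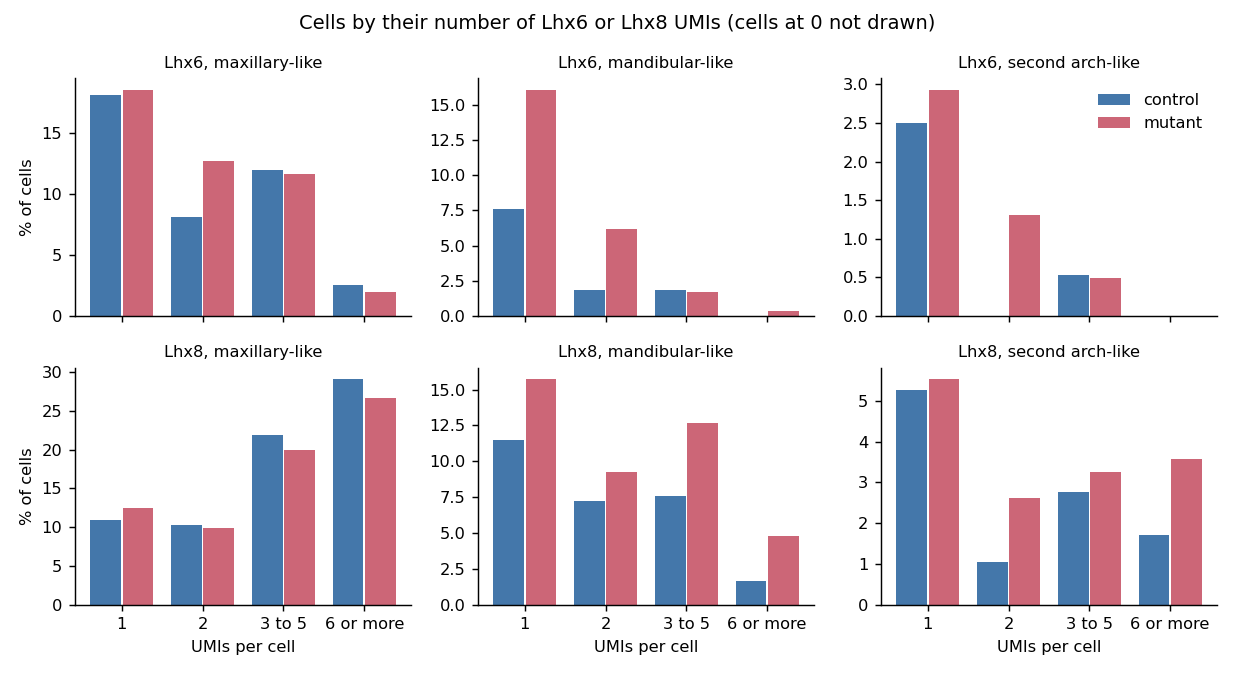
Percent of cells (vertical axis) by their number of Lhx6 UMIs (top) or Lhx8 UMIs (bottom) in maxillary-like, mandibular-like and second arch-like mesenchyme, with control in blue and mutant in red. Cells at 0 are not drawn and the vertical axes differ. In mandibular-like mesenchyme the mutant bars are higher in each Lhx8 class, up to 6 or more UMIs (14 of 292 against 9 of 540 cells).

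The ratio of Lhx8 to Lhx6 UMIs differed between clusters. Since 3′ UMIs were not divided by length or capture, only its change from cluster to cluster is read. The ratio was 4.13 (3.86 to 4.41) in control and 3.80 (3.52 to 4.11) in mutant maxillary-like cells, and 3.75 (2.98 to 4.75) and 3.27 (2.63 to 4.11) in mandibular-like cells. In second arch-like cells it was 8.63 (5.97 to 12.9) and 8.56 (6.23 to 12.0), above the maxillary-like intervals in both libraries.

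The most uneven ratio came from a small population in the finest clustering, of 171 control and 87 mutant cells. It was led by Pdlim3, Igfbp7, Pex5l, Pmaip1 and Dkk1, and held Gata3, a zinc finger factor gene, at 256 CPM in the control and 237 CPM in the mutant. Lhx8 stood at 141 CPM (127 to 157) in the control and 193 CPM (169 to 219) in the mutant library. Lhx6 was low there, at 2.78 CPM (1.12 to 5.73) and 4.86 CPM (1.79 to 10.6), from 7 and 6 UMIs. The ratio of Lhx8 to Lhx6 UMIs was 50.9 (24.4 to 127) and 39.7 (18.0 to 109). These cells also held the midfacial gene Alx1 at 635 and 544 CPM and Dlx5, a distal arch homeobox gene, at 90.1 and 94.1 CPM. Barx1, which marks oral arch mesenchyme, stood at only 3.18 and 5.68 CPM. Of the control cells, 64.3% came from the maxillary-like and 35.7% from the frontonasal-like cluster (66.7% and 33.3% of the mutant cells). Cells picked instead by UMIs of both Gata3 and Pdlim3 (149 and 91 cells) held 137 Lhx8 and 8 Lhx6 UMIs in the control and 144 and 6 in the mutant library. Cells picked by both Gata3 and Dkk1 (242 and 131 cells) held more Lhx6, with 609 Lhx8 and 52 Lhx6 UMIs in the control and 337 and 23 in the mutant. The Lhx8 log2 ratio was 0.65 (0.30 to 1.00) by the former gate and -0.07 (-0.26 to 0.13) by the latter, so its direction depended on the gate. This population was singled out after its values were seen.

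Over the whole mesenchyme, the libraries differed little. Lhx6 counted 1270 control and 1042 mutant UMIs, 21.6 CPM (20.4 to 22.8) and 23.4 CPM (22.0 to 24.9), a log2 ratio of mutant over control of 0.12 (-0.0027 to 0.24). Lhx8 counted 5353 and 4153 UMIs, 91.0 CPM (88.6 to 93.5) and 93.4 CPM (90.5 to 96.2), a log2 ratio of 0.04 (-0.02 to 0.09). The median of all genes was 0.02 on this scale. Of the members, 0 of 2 were past 1.5-fold in either direction, where 3.45% of 11693 genes with at least 100 UMIs in 1 or both libraries were. At 5000 UMIs per cell, 6.98% of control and 7.75% of mutant cells held an Lhx6 UMI, a difference of 0.77 percentage points (-0.53 to 2.09). For Lhx8 the shares were 20.3% in both libraries, with a difference of 0.04 percentage points (-1.95 to 2.05). When the cluster shares of the control were kept for both libraries, the log2 ratios were 0.10 for Lhx6 and 0.01 for Lhx8. Of 8 brain progenitor markers, 7 were higher in mutant mesenchyme, with summed levels of 231 and 330 CPM. Without clusters 5 and 6, which neural and neuronal genes led, the ratios were 0.13 for Lhx6 and 0.04 for Lhx8.

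In maxillary-like mesenchyme, the Lhx6 levels of the libraries were alike, with a log2 ratio of 0.01 (-0.13 to 0.14). Lhx8 was slightly lower in the mutant, with a log2 ratio of -0.11 (-0.18 to -0.04). At equal depth, 52.2% of control and 46.5% of mutant cells held an Lhx8 UMI, a difference of -5.75 percentage points (-10.3 to -1.16). The Lhx6 shares were 19.4% and 19.2%. Neither gene was past 1.5-fold here, where 1.22% of 9639 genes were.

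The finest clustering split this tissue into cells where the genes were higher in the mutant and cells where they were lower. The cluster led by Osr2, Zmat4, Osr1, Pcdh10 and Aldh1a2 (361 and 217 cells), with Osr1 and Osr2 known from palate and tooth mesenchyme, held the highest Lhx8 level of all. Lhx8 was 282 CPM (270 to 295) in the control and 350 CPM (333 to 367) in the mutant, a log2 ratio of 0.31 (0.21 to 0.40). Lhx6 was 68.2 and 85.3 CPM, a ratio of 0.32 (0.12 to 0.52). The opposite was seen in the cluster led by AI314278, Lgi1, Sim2, Pcdh17 and Htr1b (276 and 221 cells). Lhx8 was 261 CPM (247 to 275) and 180 CPM (167 to 193), a ratio of -0.54 (-0.67 to -0.41), and Lhx6 was 87.7 and 72.4 CPM, a ratio of -0.28 (-0.49 to -0.06). None of these 4 ratios was past 1.5-fold, where 1.53% of 6984 genes in the Osr2 cluster and 1.34% of 6346 genes in the Sim2 cluster were.

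Gates on single cells that do not use the clusters gave the same directions. Cells with UMIs of both Osr2 and Barx1 (202 and 188 cells) held Lhx8 at 220 and 282 CPM and Lhx6 at 49.3 and 71.2 CPM. Their log2 ratios were 0.36 (0.23 to 0.49) for Lhx8 and 0.53 (0.26 to 0.81) for Lhx6. Cells with a Sim2 UMI (171 and 166 cells) held Lhx8 at 148 and 110 CPM and Lhx6 at 35.0 and 23.1 CPM, with ratios of -0.42 (-0.64 to -0.20) and -0.60 (-1.09 to -0.12). These gates were chosen after the cluster values were seen. Gates on Dlx genes, which mark positions along the arch, also split the cells. Cells with Dlx5 or Dlx6 but no Hand or Hox UMI (805 and 418 cells) held Lhx6 at 29.8 and 51.5 CPM, a ratio of 0.79 (0.58 to 0.99), and Lhx8 at 155 and 233 CPM, a ratio of 0.59 (0.49 to 0.68). Cells with Dlx1 or Dlx2 but no Dlx5, Dlx6, Hand, Hox, Alx1 or Alx4 UMI (230 and 229 cells) held Lhx6 at 95.2 and 60.4 CPM, a ratio of -0.66 (-0.91 to -0.41), and Lhx8 at 263 and 167 CPM, a ratio of -0.65 (-0.80 to -0.50). The gates also differed in cell number between the libraries, and the part of this in the ratios was not tested. At the intermediate clustering, a cluster without a name (474 and 374 cells) was led by Gata3, Foxl2, Pdlim3, Thy1 and Pmaip1. It carried Alx1 at 397 and 294 CPM. Of its cells, 409 and 341 came from the maxillary-like and 65 and 33 from the frontonasal-like cluster. Its summed frontonasal markers stood at 743 and 625 CPM, and its summed maxillary markers at 269 and 292 CPM. Its Lhx8 level was 131 CPM in the control and 111 CPM in the mutant, a ratio of -0.25 (-0.39 to -0.10). Its Lhx6 levels were 16.8 and 17.0 CPM. The ratio of Lhx8 to Lhx6 UMIs in it was 7.83 (6.47 to 9.55) and 6.51 (5.24 to 8.16).

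In mandibular-like mesenchyme, both genes were higher in the mutant library. Lhx6 was 12.6 CPM (10.2 to 15.5, 95 UMIs) in the control and 23.2 CPM (19.0 to 28.0, 106 UMIs) in the mutant, a log2 ratio of 0.87 (0.46 to 1.29). Lhx8 was 47.4 CPM (42.6 to 52.6) and 75.9 CPM (68.1 to 84.3), a ratio of 0.68 (0.46 to 0.90). So 2 of 2 members were 1.5-fold or more higher, where 0.703% of 7680 genes were. Lhx6 reached the 100 UMIs asked of these genes only in the mutant library, where it was higher. Its entry among them was thus partly set by this filter, and the share is a comparison for Lhx8 only. Lhx8 passed the filter in both libraries (356 and 347 UMIs). At equal depth, the share of cells with an Lhx6 UMI was 4.65% in the control and 11.4% in the mutant, a difference of 6.73 percentage points (2.70 to 11.3). For Lhx8 the shares were 14.3% and 26.2%, a difference of 11.9 percentage points (5.96 to 18.1). In the intermediate clustering, the mandibular-like cluster (607 and 336 cells) gave smaller Lhx8 values, 70.7 and 91.4 CPM, a ratio of 0.37 (0.20 to 0.54). Lhx6 in it was 15.4 and 23.4 CPM, a ratio of 0.61 (0.25 to 0.97). In place of the cluster, all mesenchyme cells with a Hand1 or Hand2 UMI (763 and 396 cells) held Lhx8 at 76.0 and 89.3 CPM, a ratio of 0.23 (0.08 to 0.38), and Lhx6 at 16.9 and 25.4 CPM, a ratio of 0.59 (0.30 to 0.89). Both genes were higher in the mutant by each definition, and the Lhx8 difference was under 1.5-fold by the latter 2.

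**Figure D3:**
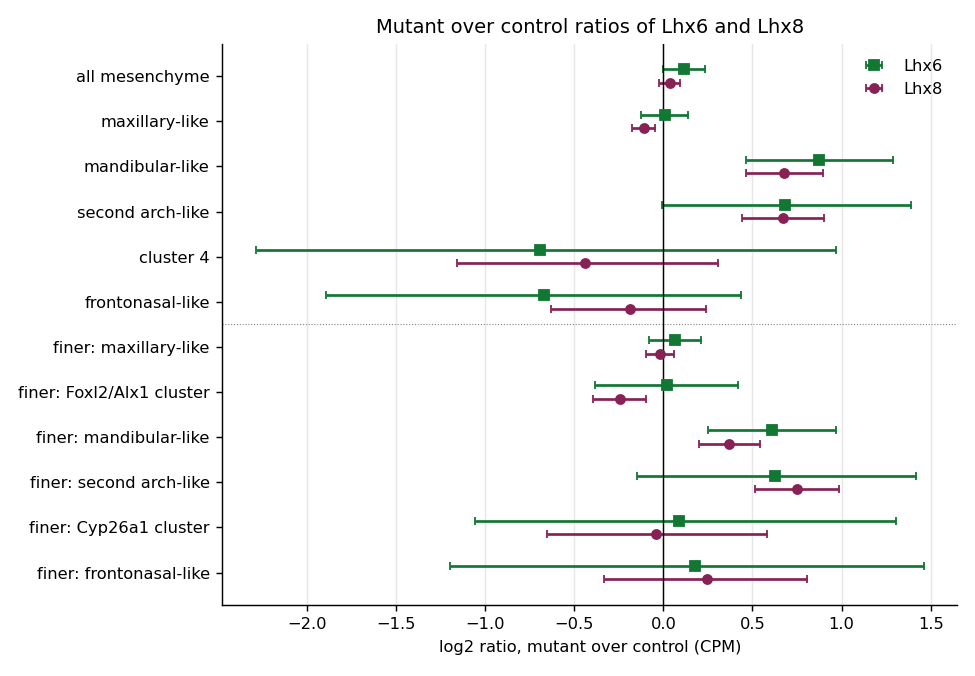
Log2 ratio of mutant over control CPM (horizontal axis) for Lhx6 (green squares) and Lhx8 (purple circles) in all mesenchyme, in 5 clusters, and below the dotted line in clusters of the intermediate clustering. Bars are exact 95% intervals for counting error. Mandibular-like mesenchyme lies above 0 for both genes (0.87 and 0.68), and second arch-like mesenchyme lies above 0 for Lhx8 (0.67).

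The markers of the mandibular-like cluster moved too. Hand2, which sets distal arch identity, was 218 CPM in the control and 181 CPM in the mutant, and Hand1 was 74.3 and 29.7 CPM. Of the 7 mandibular markers, 5 were lower and 1, the forkhead gene Foxf2, was higher (35.9 and 56.0 CPM), and their summed level was 565 and 461 CPM. Of 7 frontonasal markers, 4 were higher and 0 lower there, with summed levels of 187 and 226 CPM. The share of mesenchyme cells in the cluster was 14.2% and 10.2%. The part of these values in the Lhx6 and Lhx8 difference was not tested. The Lhx8 shares are also given by Hand2 count, as a description only. Among cells without a Hand2 UMI after thinning, 13.6% of 228 control and 29.5% of 139 mutant cells held Lhx8. Among cells with 1 or 2 Hand2 UMIs the shares were 13.7% of 249 and 18.9% of 127. With 3 or more, they were 19.7% of 61 and 45.8% of 24. The mutant share was the higher in each of the 3 bins, and the intervals were apart in the bin without Hand2 (9.43 to 18.7% and 22.1 to 37.8%) but overlapped in the other 2 bins.

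Mural markers also differed in this cluster, with a summed level of 134 CPM in the control and 234 CPM in the mutant for the 8 genes. Acta2 and Tagln, smooth muscle genes, were 0.133 and 1.46 CPM in the control and 42.9 and 61.2 CPM in the mutant. They were found in 5 of 540 control cells (0.926%) and 13 of 292 mutant cells (4.45%). Without those cells, Lhx6 was 12.8 and 24.5 CPM, a ratio of 0.94 (0.53 to 1.36), and Lhx8 was 47.9 and 79.7 CPM, a ratio of 0.74 (0.52 to 0.95). The part of the mural genes in the Lhx6 and Lhx8 difference was not tested. Within the mandibular-like cells, the finest clustering gave unequal Lhx8 ratios. In a cluster led by Syt6, Gpr50, Gm34030, Dsg2 and Npr3 (249 and 133 cells), Lhx8 was 37.8 and 72.7 CPM, a ratio of 0.95 (0.56 to 1.33), and Lhx6 was 17.3 and 27.3 CPM, a ratio of 0.66 (0.05 to 1.26). All mesenchyme cells with a Syt6 or Gpr50 UMI (325 and 197 cells) gave smaller differences, with Lhx8 at 90.4 and 108 CPM, a ratio of 0.26 (0.06 to 0.46), and Lhx6 at 33.2 and 40.1 CPM, a ratio of 0.27 (-0.06 to 0.61). Of 4480 genes, 0.603% were 1.5-fold or more higher in this cluster. In the cluster led by Hand1, Rtl3, Cavin2, Gpr50 and Foxf1 (160 and 88 cells), Lhx8 was 58.5 and 54.7 CPM, a ratio of -0.10 (-0.51 to 0.31).

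In second arch-like mesenchyme, Lhx8 was also higher in the mutant, at 24.9 CPM (22.1 to 28.1, 276 UMIs) in the control and 39.8 CPM (35.8 to 44.0, 368 UMIs) in the mutant. The log2 ratio was 0.67 (0.44 to 0.90), where 1.28% of 8570 genes were 1.5-fold or more higher. At equal depth, Lhx8 was found in 5.18% and 8.93% of cells, a difference of 3.75 percentage points (0.92 to 6.70). Lhx6 was rare, at 2.89 CPM (32 UMIs) and 4.65 CPM (43 UMIs), a ratio of 0.68 (-0.01 to 1.39) whose interval held 0. Cells with Hoxa2 or Hoxb2 but no Hand UMI (341 and 395 cells) gave 57.4 and 66.3 CPM of Lhx8, a ratio of 0.21 (-0.0065 to 0.42), and 9.26 and 7.38 CPM of Lhx6, a ratio of -0.33 (-0.93 to 0.27). By that gate neither ratio left out 0. The summed level of 6 second arch markers was 195 and 249 CPM, that of 7 mandibular markers 385 and 287 CPM, and that of 8 brain progenitor markers 126 and 184 CPM. Their part in the difference was not tested.

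Within the second arch-like cluster, the Lhx8 difference was uneven. Of its cells, 19.4% in the control and 9.28% in the mutant fell in a finest cluster named mandibular-like. That finest cluster held Hand2 at 176 and 172 CPM, Hoxa2 at 11.9 and 24.7 CPM and Lhx8 at 54.7 and 64.6 CPM. The part of this make-up in the Lhx8 ratio was not tested. The finest clustering gave a second arch-like cluster led by 3110099E03Rik, Dlx3, Lypd1, Dlx4os and Dlx4 (379 and 267 cells). Dlx3 and Dlx4 are distal arch homeobox genes. Lhx8 was 20.3 CPM (16.6 to 24.5) in the control and 54.7 CPM (47.7 to 62.5) in the mutant, a ratio of 1.43 (1.09 to 1.78), where 1.01% of 6360 genes were 1.5-fold or more higher. Lhx6 was 2.09 and 4.82 CPM from 11 and 19 UMIs. A further second arch-like cluster, led by Cyp26a1, Pcp4, Shisa3, Sertm1 and Emx2 (150 and 180 cells), had Lhx8 at 53.3 CPM (44.8 to 63.0) and 39.9 CPM (33.0 to 47.7), a ratio of -0.42 (-0.79 to -0.06). Single cells with UMIs of Hoxa2 or Hoxb2 and of Dlx3 or Dlx4 (177 and 176 cells) held Lhx8 at 20.4 and 33.5 CPM, a ratio of 0.72 (0.25 to 1.20). Those with Cyp26a1 and Hoxa2 or Hoxb2 (60 and 84 cells) held it at 20.3 and 68.1 CPM, a ratio of 1.75 (1.01 to 2.56). The direction in Cyp26a1 cells thus changed between the cluster and the gate.

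In frontonasal-like mesenchyme, neither gene gave a ratio whose interval left out 0. Lhx6 was 1.38 and 0.869 CPM from 25 and 10 UMIs, a log2 ratio of -0.67 (-1.89 to 0.44). Lhx8 was 7.03 CPM (5.86 to 8.37) and 6.17 CPM (4.82 to 7.78), a ratio of -0.19 (-0.63 to 0.24). Mural-like cells of the intermediate clustering made up 30.9% of this cluster in the control and 46.0% in the mutant, and 8 of 8 mural markers were higher, with summed levels of 171 and 307 CPM. In its other large part, the frontonasal-like cells of the intermediate clustering, Lhx8 was 5.32 CPM in the control and 6.31 CPM in the mutant. A small part, 65 and 33 cells, fell in the Gata3 and Foxl2 cluster without a name and held Lhx8 at 64.9 and 54.3 CPM. Those cells carried 49 of the 127 control and 19 of the 71 mutant Lhx8 UMIs. The frontonasal-like cluster had the largest share of genes past 1.5-fold among the 4 named ones, 4.93% of 9754. In cluster 4, Lhx8 was 36.8 and 27.2 CPM, a ratio of -0.44 (-1.16 to 0.30). The mural-like cells of the intermediate clustering (376 and 385 cells) held Lhx8 at 1.95 and 1.93 CPM, the lowest level among its named clusters.

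Lhx6 and Lhx8 were often found in the same cells. At 5000 UMIs per cell, 4.73% of control and 4.85% of mutant mesenchyme cells held both, against 1.42% and 1.58% if their detection were independent. Lhx8 was found in 67.7% (61.6 to 73.3) of the control cells with Lhx6 and in 16.7% of those without. In the mutant library the shares were 62.5% (55.7 to 69.0) and 16.8%. Within mandibular-like cells, 7 of 25 control (28.0%) and 18 of 33 mutant (54.5%) cells with Lhx6 also held Lhx8, against 13.6% and 22.6% of those without. In most cells with Lhx8 no Lhx6 was found, since 15.5% of cells of either library held Lhx8 alone.

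The midfacial genes Alx1 and Alx4 were examined in the same cells. A UMI of either was found in 1593 of 3724 control cells (42.8%) and 869 of 2786 mutant cells (31.2%) after thinning. Lhx8 was present in 15.7% (13.9 to 17.6) of the control and 17.0% (14.6 to 19.7) of the mutant cells with such a UMI, and in 23.7% and 21.8% of those without. Lhx6 was rarer in cells with Alx1 or Alx4, at 2.51% (1.80 to 3.40) and 4.95% (3.60 to 6.61), against 10.3% and 9.02% of those without. For mutant Lhx8 this depended on the setting. With at least 2 UMIs of Alx1 or Alx4 asked, its shares were 18.9% (15.5 to 22.6) with and 20.6% (19.0 to 22.3) without, and with no thinning they were 31.6% with and 30.2% without. Lhx6 was less frequent beside these transcripts in both libraries under each of these settings. Within maxillary-like cells, the Lhx8 shares were 42.9% and 35.2% of cells with Alx1 or Alx4 and 57.8% and 52.1% of those without. In mandibular-like cells, they were 18.4% and 27.6% with and 12.5% and 25.4% without, and the intervals with and without overlapped in each library.

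Cells with partner genes of the oral mesenchyme had higher shares. Of cells with Barx1, a homeobox gene of the molar field, 32.5% of control and 35.5% of mutant cells held Lhx8, against 14.1% and 14.2% of those without. Within maxillary-like control cells, Lhx6 was found in 24.6% of cells with Barx1 and 12.9% without, and Lhx8 in 53.0% and 51.2%. In the mutant library, Lhx6 was found in 95 of 406 cells with Barx1 and 62 of 412 without, and the Lhx8 shares were 51.7% and 41.3%. Of cells with Pitx1, a homeobox gene of the mandibular arch, 41.0% and 50.2% held Lhx8 and 15.1% and 22.3% held Lhx6. Of cells with Osr2, 45.0% and 38.2% held Lhx8 and 9.93% and 23.7% held Lhx6, and the Lhx6 intervals (5.67 to 15.9 and 16.7 to 31.9) did not overlap. Hand1 or Hand2 cells held Lhx8 in 16.3% (13.2 to 19.8) of the control and 27.5% (22.1 to 33.6) of the mutant, and Hoxa2 or Hoxb2 cells in 7.72% (4.84 to 11.6) and 15.9% (11.7 to 20.8). Cells with Zic genes, midline and meningeal markers, held Lhx8 in 7.14% and 5.31%.

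**Figure D4:**
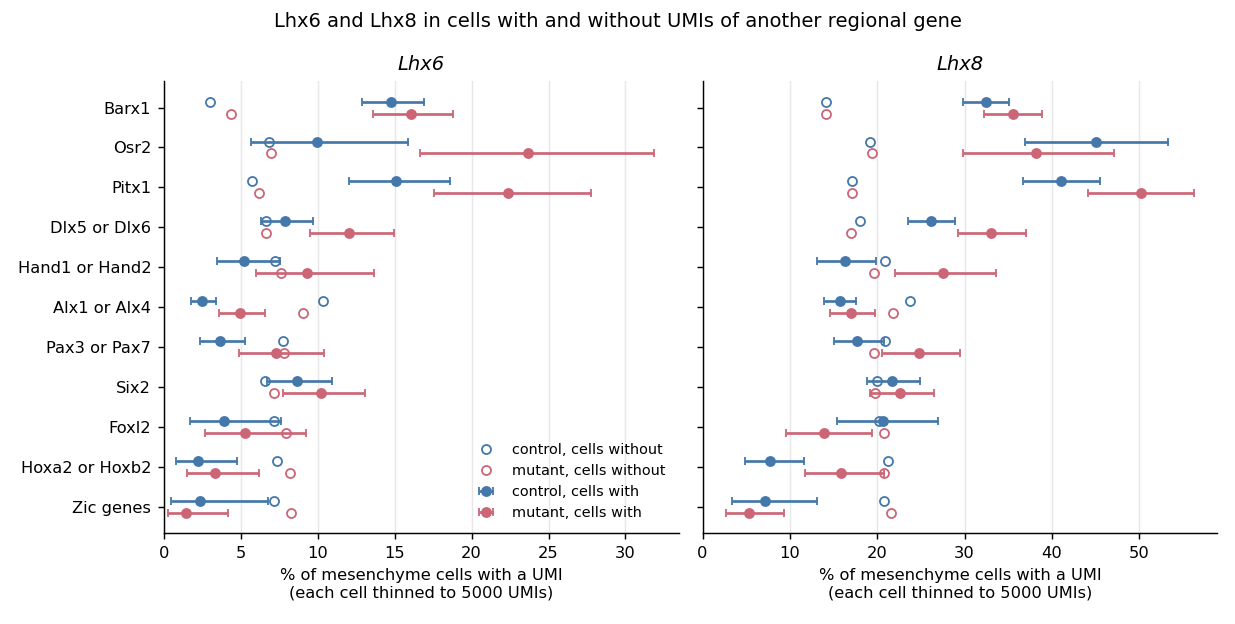
Percent of mesenchyme cells with an Lhx6 UMI (left) or an Lhx8 UMI (right) among cells with (filled, with exact 95% intervals) and without (open) a UMI of the regional gene named on the vertical axis, with each cell thinned to 5000 UMIs. Control is blue and mutant red. Cells with Barx1 or Pitx1 stand above those without, and cells with Zic genes below, in both libraries.

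The transcript next to Lhx8 followed it. AI606473 counted 476 control and 390 mutant UMIs in the mesenchyme, 8.10 and 8.77 CPM, a log2 ratio of 0.11 (-0.08 to 0.31). Across 16 clusters of the finest clustering, the Pearson correlation of log2(CPM + 1) with Lhx8 was 0.946 in the control and 0.910 in the mutant library. These clusters share a library, and AI606473 was among the genes used to form them, so the value is a description. AI606473 was found in 10.5% of control mesenchyme cells with Lhx8 and 0.707% of those without (12.4% and 1.08% in the mutant). Of the cells with AI606473, 79 of 100 control and 70 of 94 mutant cells held Lhx8. It stood at 20.8 and 20.5 CPM in maxillary-like cells, 4.66 and 8.31 CPM in mandibular-like cells and 1.17 and 1.84 CPM in second arch-like cells. The mandibular-like ratio was 0.83 (0.13 to 1.54) from 35 and 38 UMIs, next to 0.68 for Lhx8. With AI606473 also left out of clustering, Lhx8 in the matching mandibular-like cluster was 49.4 and 73.5 CPM and in the second arch-like cluster 27.8 and 39.0 CPM. The pair lies on opposite strands without overlap, and whether counting used strand was not stated.

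**Figure D5:**
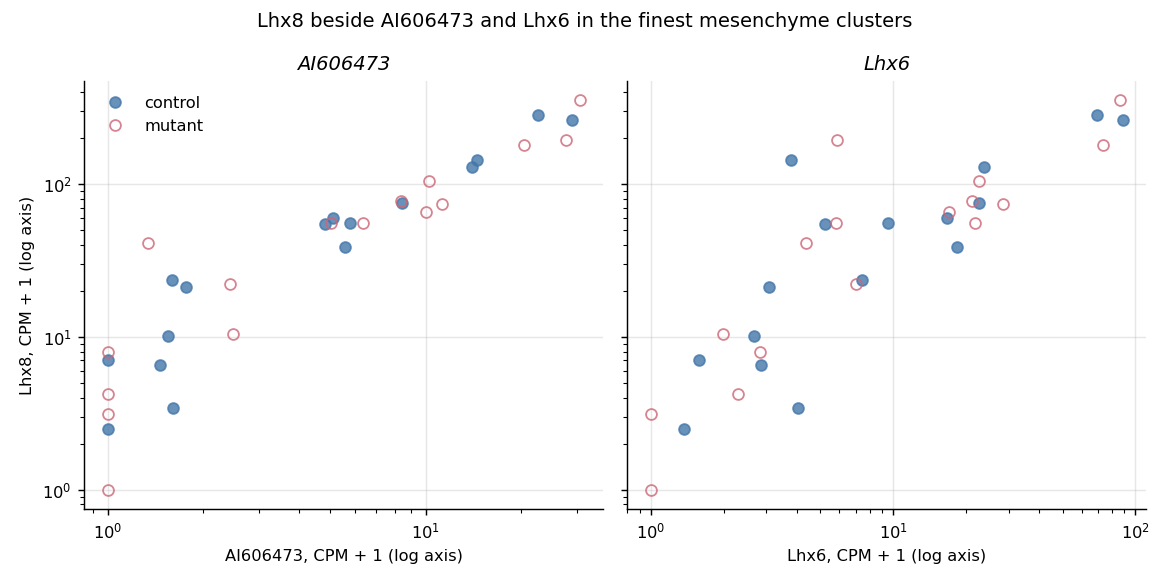
Lhx8 level against AI606473 (left) and Lhx6 (right) in 16 finest mesenchyme clusters, as CPM + 1 on log axes, with control clusters filled in blue and mutant clusters as open red circles. The AI606473 points lie closer to a line (r = 0.946 and 0.910) than the Lhx6 points (r = 0.827 and 0.878). The Lhx6 panel has a cluster with high Lhx8 and little Lhx6 in each library (141 and 2.78 CPM, 193 and 4.86 CPM).

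The neighbours of Lhx6 were read in the same way. Rbm18, 10670 bases upstream, stood at 53.7 and 56.6 CPM in the mesenchyme with correlations to Lhx6 of 0.744 (rank 8 of 10538 genes in the control) and 0.557 over the 16 clusters. Ndufa8 gave 0.675 and 0.692, Mrrf 0.631 and 0.539, and Gm13429, a processed transcript at 4.95 and 5.31 CPM, 0.599 and 0.606. Morn5, 2234 bases downstream, gave only 10 and 12 UMIs. On the far side of Lhx8, Slc44a5 gave 18 and 15 UMIs.

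Of 10538 genes ranked by their likeness to Lhx6 over the 16 control clusters, AI606473 (r = 0.855) and Lhx8 (0.827) came first. Next were Gm43376 (0.802), Nup88 (0.770), the growth factor gene Fgf10 (0.753) and the ligand gene Wnt11 (0.750). In the mutant library Lhx8 was first for Lhx6 (0.878), while Wnt11 had rank 1258 (0.452). For Lhx8, the first 6 were AI606473, Taf2 (0.857), Tmem131l (0.856), Rnmt (0.855), Mab21l2 (0.848) and Gtf2e2 (0.843), and Lhx6 was rank 9. Mab21l2, a gene of eye and arch mesenchyme, stood at 192 CPM in the control and 194 CPM in the mutant. The ranks depended on the clusters. At the intermediate clustering AI606473 was rank 1 for Lhx8 in the control but rank 4 in the mutant library, and 3 of the 6 for Lhx6 and 5 of the 6 for Lhx8 were among the first 20 at the intermediate clustering.

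Other genes of the pathway were read from lists and are given for the mesenchyme. A list gene was called at 1.5-fold with an interval that left out 0, from at least 30 UMIs, beside the 3.45% of all genes past 1.5-fold. This share and those by region cover only genes with at least 100 UMIs in 1 or both libraries and ask for no interval. Some list genes had fewer UMIs, so the shares are a rough guide only. Of 11 FGF response genes, 0 were called in either direction and the median log2 ratio was 0.02, as for all genes. The receptor Fgfr1 was 106 and 108 CPM, the feedback phosphatase Dusp6 68.1 and 68.2, the feedback inhibitor Spred1 56.8 and 57.6, and the ETS factor Etv1 34.5 and 31.5. By region, 0 of 11 were called in maxillary-like cells (median -0.03) and 3 were higher in mandibular-like cells (median 0.13), where both LIM genes were also higher and 1.94% of genes were past 1.5-fold. The 3 were Dusp6 (24.4 and 36.7 CPM), Spry1 (6.66 and 10.9) and the ETS factor Etv4 (27.0 and 41.1). In second arch-like cells, Etv4 (5.60 and 10.3 CPM) was the 1 of 11 called, the median was 0.22, and 2.22% of genes were past 1.5-fold.

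Of 14 oral and dental arch partners, 0 were called in either direction in the mesenchyme, with a median of -0.22. Intervals of 9 genes lay below 0 and of 1, Osr1 (50.6 and 55.3 CPM), above. The homeobox genes Msx1 (422 and 317 CPM), Barx1 (286 and 255), Pitx1 (92.9 and 62.8) and Gsc (65.5 and 43.8) were the most abundant of the list. In maxillary-like cells 3 of 14 were lower, namely Pitx1 (157 and 86.9 CPM), the tooth and palate gene Pax9 (37.7 and 22.6) and Msx2 (97.4 and 60.0), with a median of -0.19, where 0.602% of all genes were 1.5-fold or more lower. There, Lhx6 and Lhx8 gave ratios of 0.01 and -0.11. In second arch-like cells 0 of 12 were higher and 4 were lower, namely Pitx1 (46.9 and 14.6 CPM), Gsc (78.4 and 34.5), Barx1 (242 and 150) and Pax9 (10.1 and 6.05), where 0.933% of all genes were lower by as much. In mandibular-like cells 1 of 14 was higher, Osr2 (25 and 32 UMIs), and 3 were lower, Msx2 (42.5 and 23.4 CPM), Dlx2 (23.2 and 15.1) and the ligand gene Bmp4 (62.7 and 38.7), with a median of -0.14, where 1.24% of all genes were lower by as much.

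Of 10 LIM-homeodomain genes measured, Lhx6 and Lhx8 included, 4 were higher and 2 lower. The higher genes were Lhx1 (1.00 and 1.82 CPM), Lhx2 (2.08 and 5.89), Lhx9 (2.36 and 3.91) and Lmx1a (0.187 and 0.540), and the lower ones were Isl1 (4.00 and 1.87) and Isl2 (2.76 and 1.26). The summed level of 8 neuron markers in the mesenchyme was 64.1 and 111 CPM, beside 231 and 330 CPM for the brain progenitor markers, and their part in these counts was not tested. By region, without Lhx6 and Lhx8, 1 of 4 genes was higher (Lhx2) and 2 lower (Isl1 and Isl2) in maxillary-like cells. Of all genes there, 0.622% were 1.5-fold or more higher and 0.602% lower. In frontonasal-like cells 1 of 4 was higher (Lhx2) and 1 lower (Isl2), where 3.84% and 1.09% of all genes were. In mandibular-like cells both measured genes, Isl1 (13.0 and 4.37 CPM) and Isl2 (8.52 and 2.41), were lower. Of the genes there with at least 100 UMIs in 1 or both libraries, 1.24% were lower by as much. In the mesenchyme, all 6 called genes lay far below Lhx6 and Lhx8 in CPM, and this scale is not divided by length. Of 10 LIM cofactor and LIM-only genes, 1 was called, Lmo1 (2.96 and 4.77 CPM). The cofactor genes Ssbp3 (343 and 342 CPM), Ssbp2 (132 and 146) and Ssbp4 (91.8 and 96.0) and the LIM-only gene Lmo4 (177 and 183) were abundant in both libraries. Of 7 WNT response genes, 1 was called, the factor Sp5 (1.89 and 3.78 CPM), while the effector Lef1 (71.2 and 68.7) and the feedback inhibitors Axin2 (54.4 and 53.5), Nkd1 (47.9 and 50.3) and Znrf3 (12.9 and 14.3) were not. Of 4 cell cycle inhibitor genes, 1 was called, Cdkn1a (1.24 and 3.17 CPM), while Cdkn1c was 649 and 736 CPM, Cdkn1b 24.2 and 25.8, and Cdkn2c 2.33 and 2.45.

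Outside the mesenchyme, both genes were found in a small set of neurons. Lhx8 stood at 14.6 CPM (12.2 to 17.3) in control and 18.3 CPM (16.2 to 20.6) in mutant neurons, and Lhx6 at 2.01 and 3.92 CPM. Of 799 control and 1288 mutant neurons, 13 and 25 held at least 3 Lhx8 UMIs, and they carried 85.5% and 90.2% of the Lhx8 UMIs of the class. Lhx6 was found in 53.8% and 72.0% of them, and in 0.509% and 0.475% of the other neurons. The ventral forebrain gene Nkx2-1, found in 69.2% and 92.0% of them, was among their leading genes, which were read after their values were seen. Mesenchymal transcripts were also more frequent in them than in other neurons, with Prrx1 in 30.8% against 7.12% in the control and 16.0% against 5.30% in the mutant, and Twist1 in 38.5% against 8.02% and 8.0% against 5.46%. Their part in the Lhx6 and Lhx8 values was not tested. Doublet calls fell on 2 of these neurons in each library. Glia held Lhx8 at 9.44 and 4.34 CPM, from 48 and 14 UMIs, and brain progenitors at 1.27 and 2.40 CPM.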

How the data were processed

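The authors sequenced 10x 3′ libraries and ran Cell Ranger 6.0.0 (named in the matrix header) on mm10, and the deposited values are whole UMI counts without normalization. Whether counting used strand is not given in the sources used here. The members and the gene lists were chosen with earlier results of these data known.

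As in the study, barcodes were kept with 200 to 7500 genes and at most 10% of UMIs from mitochondrial genes. Seurat 5.3.0 (R 4.3.3) joined the libraries by anchors over 2000 variable genes, and cells were clustered at resolution 0.05 in 30 dimensions for classes. Mesenchyme was clustered in 20 dimensions at resolution 0.2 for regions, 0.4 for the intermediate and 0.8 for the finest clustering. Classes were named by the share of cells with a UMI of the listed markers. Regions were named by the mean log2 ratio of listed markers over the other mesenchyme cells, together with listed markers among the leading genes. The scoring was settled after the clusters were seen. Doublets were called with Scrublet (scanpy 1.11.5) and kept. UMIs were summed per library and cluster, with exact Poisson, conditional binomial and Clopper-Pearson intervals. Intervals of differences of shares combine both exact intervals. Shares were compared after thinning cells to 5000 UMIs. With 82313680 control and 77251738 mutant UMIs in kept cells, counts of a gene set the precision. Named genes are the members, the called and the 4 most abundant genes of each list, the 6 most alike genes (at least 200 UMIs) and 5 leading genes per region. Genes named in gates, and Nkx2-1 and Osr1, were chosen after their values were seen. Certain genes are not reported here and were left out of lists and gates. Loci came from GENCODE M21. Scripts were tested on simulated data. Alternatives included TMM scaling (edgeR 4.0.16), thinning, doublet removal, other clusterings and gates on single cells.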

Additional observations from a re-analysis of the deposited data

Results flagged for a closer look

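The Lhx8 difference between the libraries was not the same in all regions. The log2 ratio of mutant over control was larger by 0.78 in second arch-like than in maxillary-like mesenchyme, and by 0.79 in mandibular-like than in maxillary-like mesenchyme. With 1 library per genotype, neither difference was tested.

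Neurons lie outside the mesenchyme comparison and held both genes above the level of brain progenitors. Lhx6 was 2.01 CPM in control and 3.92 CPM in mutant neurons, and Lhx8 was 14.6 and 18.3 CPM.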

How the results depend on the processing

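Of 164 values recomputed under an alternative, 143 stayed within their counting error and 21 moved, with 0 called values turning direction. With cells thinned, the log2 ratio was -2.03 for frontonasal-like Lhx6, 1.02 for second arch-like Lhx8, and 1.35 for Lhx6 and 1.00 for Lhx8 in mandibular-like cells. At resolution 0.4, Lhx8 gave 0.24 in frontonasal-like, -0.019 in maxillary-like and 0.37 in mandibular-like cells. With Lhx6, Lhx8 and the Alx genes allowed in clustering, it gave -0.20 in maxillary-like and 0.42 in mandibular-like cells. Gates on single cells in place of clusters gave -0.66 for Lhx6 and -0.65 for Lhx8 in cells with Dlx1 or Dlx2 UMIs only (maxillary-like), and -0.33 for Lhx6 and 0.21 for Lhx8 in Hox cells (second arch-like). They gave 0.23 for Lhx8 in Hand cells (mandibular-like). Without called doublets, cluster 5 gave 0.72 for Lhx8. Without thinning, the difference in Lhx6 shares was 2.54 percentage points in mesenchyme, 4.20 in maxillary-like, 13.0 in mandibular-like and 4.59 in Alx1 or Alx4 cells. With at least 2 UMIs asked, mandibular-like differences were 0.66 for Lhx6 and 4.77 percentage points for Lhx8. The cause of these moves was not tested. Cluster 4 had no counterpart that shared 40% of its cells in some clusterings and gave no value there. The added alternatives, without clusters 5 and 6, without Acta2 or Tagln cells and without AI606473 in clustering, were chosen after seeing the data.

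No paired analysis was possible because each group was 1 library. Depth limits Lhx6 outside maxillary-like and mandibular-like cells, where counts of 7 to 43 UMIs left wide intervals in the named regions and cluster 4. A difference between embryos cannot be separated from one between genotypes.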
